A study of Mus musculus with 8 samples.

Results

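Nuclear receptor coactivators and corepressors were followed in heart ventricles of mice with a cardiac deletion of Med1. The 9 genes described were chosen by name from the gene table: the PGC-1 family (Ppargc1a, Ppargc1b and Pprc1), the p160 family (Ncoa1, Ncoa2 and Ncoa3), the further coactivator Ncoa6, and the corepressors Ncor1 and Nrip1. They are 9 of the 23534 gene rows with a value in every library, and each had 1 row. The knockout libraries were 4 ventricle samples of these Med1cKO mice. They were set against 4 ventricle samples of mice with a floxed, undeleted Med1, labelled WT. Mice of both groups were C57BL/6 at postnatal day 21. The sources used here give neither the promoter that drove the deletion nor whether a sample was 1 animal, and if samples were not separate animals, a p-value covers technical spread only.

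A nuclear receptor bound to DNA works through coregulators that dock on its ligand-binding domain, and Med1 is the Mediator subunit that receptors contact by the same kind of docking. Coactivators of the p160 family bring histone acetyltransferases to the receptor, while Ncor1 brings the histone deacetylase Hdac3. The PGC-1 proteins are inducible coactivators of PPAR and estrogen-related receptors, known in heart for driving mitochondrial biogenesis and fatty acid oxidation, and Nrip1 is a corepressor known to oppose that programme in fat and muscle.

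The docking motif is the LXXLL box, a leucine, any pair of residues and then a pair of leucines. It is shown because Med1 and the coactivators, as well as Nrip1, dock on receptors through it, whereas Ncor1 is known to dock through a different, corepressor motif. The search read the longest coding sequence per gene of the GENCODE M21 annotation (mm10) in frame for codons that spell the box. Of the 21538 coding sequences searched, 45% held at least 1 box. Nrip1 held 10 boxes in 1161 codons, and 0.353% of all genes held as many. Ncoa1 held 7 boxes, Ncoa3 held 6 and Ncoa2 held 4, against shares of 1.02%, 1.59% and 5.13% of genes with as many. Ppargc1b held 3 boxes, Pprc1, Ncoa6 and Med1 held 2 each, and Ppargc1a and Ncor1 held 1 each. A longer coding sequence has more room for a box, and among genes of 80 to 125% of its length, 0.625% had as many as Nrip1, 3.56% as many as Ncoa1, 5.35% as many as Ncoa3, 16.5% as many as Ncoa2 and 20.5% as many as Ppargc1b. For the others a count as high was common at their length, at 48.7% for Med1, 49% for Pprc1, 58.2% for Ppargc1a, 59.2% for Ncoa6 and 85.4% for Ncor1. The first box of a gene is printed on the coding strand with up to 9 flanking bases, with the 15 bases of the box in capitals. Boxes are shown for the members other than Ppargc1b and Ncor1, whose boxes are not printed here, and then for Med1. In the lines below, the number after "coding exon" counts all exons of the transcript, untranslated exons included. It is not a place among coding exons only. A match is a run of letters in this window and not a measured contact, and the first box of a gene need not be one that docks.
Ppargc1a, chr5:51495772-51495795, minus strand, coding exon 4: CTTAAGAAGCTCTTActggcacca
Pprc1, chr19:46062402-46062425, plus strand, coding exon 4: CTGCACAAGCTGCTCaatctctct
Ncoa1, chr12:4339115-4339147, minus strand, coding exon 2: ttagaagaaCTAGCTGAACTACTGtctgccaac
Ncoa2, chr1:13174529-13174561, minus strand, coding exon 11: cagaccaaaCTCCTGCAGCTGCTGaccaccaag
Ncoa3, chr2:166048526-166048555, plus strand, coding exon 5: aaagactctTTAGGACCGCTTTTActacag
Ncoa6, chr2:155414922-155414954, minus strand, coding exon 8: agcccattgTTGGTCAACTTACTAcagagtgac
Nrip1, chr16:76294584-76294616, minus strand, coding exon 4: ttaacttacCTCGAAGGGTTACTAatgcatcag
Med1, chr11:98158136-98158168, minus strand, coding exon 17: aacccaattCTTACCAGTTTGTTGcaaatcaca

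Expression is given in FPKM, the fragments of a gene divided by its transcript length and by the size of its library. Fragment totals are unknown, but steps among the lowest values put the relative depth of the libraries between 0.974 and 1.10 times that of knockout 1. Differences are log2(FPKM + 1), knockout minus WT, with limma's standard error and Benjamini-Hochberg adjusted p over the 11974 genes averaging 1 FPKM or more, and a gene was called where that p was under 0.05. The deposited values as a whole lay higher in knockout, with a median log2 difference over all genes of 0.25. Rescaling each library by the median of its ratios to the mean library brought that median to 0.00, so differences are also given rescaled. Med1 fell to 8.31 ± 0.619 FPKM in knockout, against 14.8 ± 2.83 FPKM in WT (SD, n = 4 each), and its ranges did not overlap (exact two-sided permutation p = 0.0286, the smallest that 70 assignments allow). The sources used here do not state which Med1 exons were deleted. The 6 cardiomyocyte markers were all called lower, with a summed level of 14647 to 22319 FPKM in knockout and 42876 to 48424 FPKM in WT. The 4 atrial markers were all called higher, with sums of 5040 to 7931 FPKM in knockout and 192 to 378 FPKM in WT. Nearly all of that sum was Nppa, the atrial natriuretic peptide gene that stressed ventricle also expresses, at 5018 to 7829 FPKM in knockout and 188 to 372 FPKM in WT. Knockout 4 stood apart in markers of other tissue: the atrial light chain Myl7 had 726 FPKM there and 2.50 to 61.6 FPKM in the other knockout libraries, against at most 0.680 FPKM in WT, and the atrial marker Sln, at 188 FPKM in knockout 4, was at 0 in every WT library. Myl7 and Sln reached the mean of 1 FPKM needed for a test through knockout alone. The adipocyte marker Adipoq had 21.0 FPKM in knockout 4, at most 1.82 FPKM in the other knockout libraries and at most 3.34 FPKM in WT, so results are also given without knockout 4 where they change. In the fibroblast list 4 of 5 markers were called higher, and 3 after rescaling, with sums of 537 to 1047 FPKM in knockout and 265 to 328 FPKM in WT. Endothelial sums were 208 to 277 FPKM in knockout and 209 to 257 FPKM in WT. Of the 5 endothelial markers 1 was called higher and 1 lower as deposited, and 0 higher and 3 lower after rescaling. Among pericyte and smooth muscle markers 3 of 5 (Abcc9, Rgs5 and Kcnj8) were called lower on both scales, with list sums of 319 to 427 FPKM in knockout and 365 to 536 FPKM in WT. In bulk ventricle, fewer cells of a type and less RNA per cell cannot be told apart, and the part of cell makeup in the results below was not tested.

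As deposited, 2 of the 9 members were called lower in knockout, Ppargc1a and Ppargc1b, and 2 were called higher, Pprc1 and Ncor1. The other 5 did not pass. Over all genes tested, 16.4% were called lower and 44.9% higher, so the counts of 2 and 2 among 9 members are no measure of the group as a whole. The median log2 difference of the members was 0.09, against 0.25 over all genes. After rescaling, 3 members were called lower (Ppargc1a, Ppargc1b and Ncoa1) and 0 higher, where 27% of all genes were called lower and 26.9% higher. At an unadjusted p under 0.05 limma gave 0 members higher on the rescaled values too, and quantile normalization called 0 higher and 3 lower, beside 28.7% of all genes higher and 25.6% lower. Ppargc1a and Ppargc1b were called lower in the deposited, rescaled and quantile-normalized values alike. Library ranges did not overlap between groups for 3 members as deposited (Ppargc1a, Ppargc1b and Ncor1), beside 57% of all genes, and for 5 members after rescaling (Ppargc1a, Ppargc1b, Ncoa1, Ncoa3 and Ncoa6), beside 51.5%. Without knockout 4, 1 member was called higher (Ncor1) and 2 lower (Ppargc1a and Ppargc1b).

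**Figure D1:**
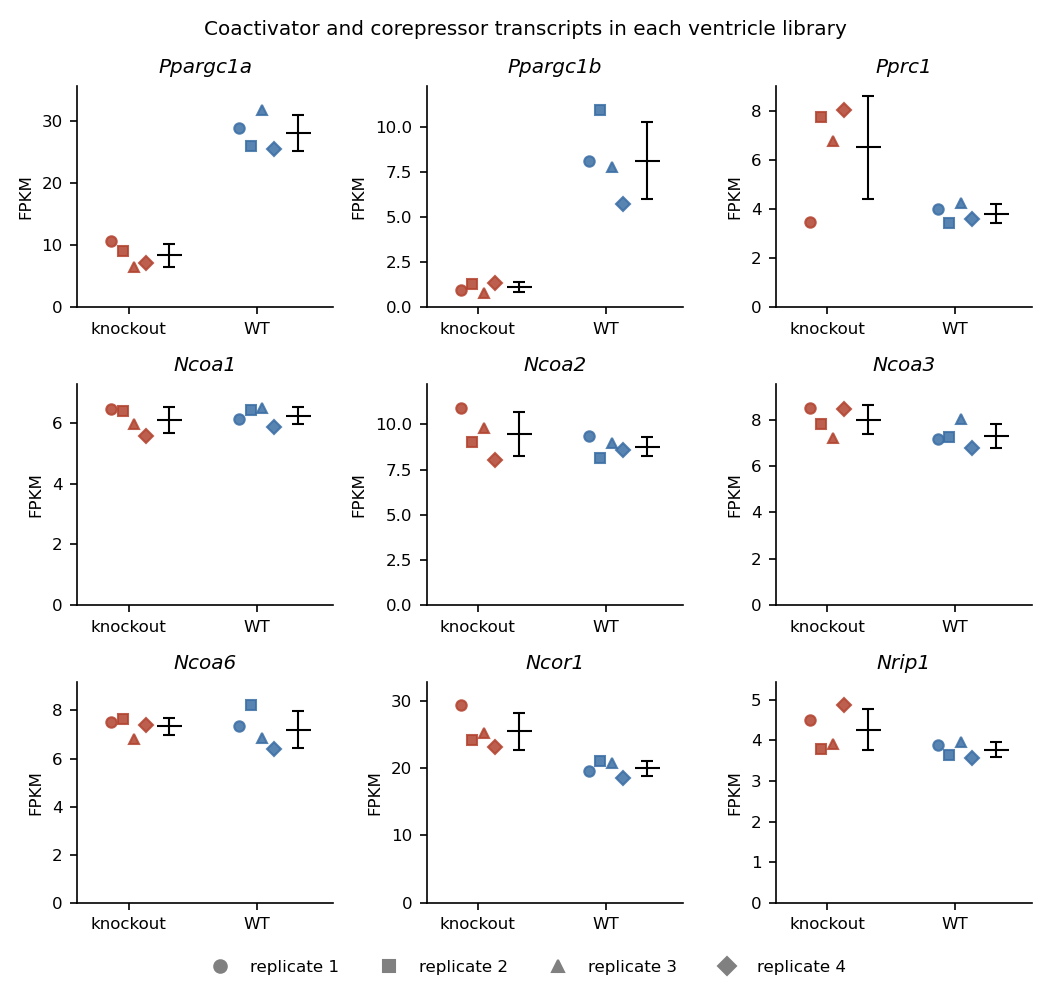
FPKM of the 9 members in each library, with knockout (red) left of WT (blue), 1 point per library shaped by its replicate number, and the mean ± SD (n = 4) beside the points. Ppargc1a and Ppargc1b lie below WT in every knockout library, Ncor1 lies above WT in every one, Pprc1 does so in 3 of 4, and the groups overlap for the other 5 genes.

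Ppargc1a encodes PGC-1α, the PGC-1 coactivator most studied in energy metabolism. The gene (chr5:51454249-51553921) had 10.7, 9.06, 6.55 and 7.16 FPKM in the 4 knockout libraries, against 28.8, 26.0, 31.8 and 25.5 FPKM in the WT libraries. Every knockout library lay far below the lowest WT library. Its mean was 8.35 ± 1.87 FPKM in knockout and 28.0 ± 2.90 FPKM in WT (SD, n = 4 each), so that knockout held 29.8% of the WT level. The log2 difference was -1.65 ± 0.141 as deposited (limma, adjusted p = 1.4e-05) and -1.91 after rescaling. In knockout it lay behind Ncor1 and Ncoa2 in mean level, and in WT it was the most abundant of the 9 members.

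Ppargc1b encodes PGC-1β, a related coactivator of the estrogen-related receptors. The gene (chr18:61298136-61400431) had 0.975, 1.32, 0.791 and 1.37 FPKM in the knockout libraries, against 8.12, 11.0, 7.79 and 5.73 FPKM in the WT libraries. The highest knockout library was well below the lowest WT library. Its mean was 1.11 ± 0.276 FPKM in knockout and 8.15 ± 2.16 FPKM in WT (SD, n = 4 each), or 13.6% of WT. The log2 difference was -2.10 ± 0.173 (limma, adjusted p = 1.2e-05) and -2.29 rescaled, and with a pseudocount of 0.1 in place of 1 FPKM it was -2.76. Among the 11974 genes it had the 111th largest fall and Ppargc1a the 221st.

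Pprc1 encodes PRC, the third PGC-1 relative, known as a serum-induced coactivator of nuclear respiratory factors. The gene (chr19:46056539-46072909) had 3.50, 7.76, 6.80 and 8.07 FPKM in the knockout libraries, against 4.01, 3.43, 4.28 and 3.59 FPKM in the WT libraries. Knockout 2, 3 and 4 lay above all WT libraries, while knockout 1 lay inside the WT range. The means were 6.53 ± 2.09 FPKM in knockout and 3.83 ± 0.389 FPKM in WT (SD, n = 4 each), and the log2 difference of 0.59 ± 0.206 was called higher (limma, adjusted p = 0.031). The call was lost after rescaling, at 0.36 (adjusted p = 0.167), and on leaving out knockout 2, 3 or 4 or WT 1, 2 or 4, with adjusted p from 0.0548 to 0.0791. Without knockout 1 it was 0.82 (adjusted p = 0.000165) as deposited and 0.59 (adjusted p = 0.00105) rescaled, the rescaled fit having been added after the values were seen. Knockout 1 also had the lowest summed cardiomyocyte markers, 14647 FPKM, but knockout 4, with the highest Pprc1 level, was next lowest at 15980 FPKM. Whether the marker sum bears on the Pprc1 level was not tested. Exons of Pprc1 share 177 bases, 2.82% of its exonic length, with Ldb1 on the opposite strand, and the sources used here do not say whether counting used strand.

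Because a common scale cancels in a ratio taken within 1 library, the PGC-1 members were also set against each other. The log2 ratio of Ppargc1a to Pprc1 was 1.61, 0.22, -0.05 and -0.17 in the knockout libraries, against 2.84, 2.92, 2.89 and 2.83 in the WT libraries. In knockout 2, 3 and 4 both genes stood at about the same level, whereas in every WT library Ppargc1a lay far above Pprc1. The geometric mean ratio was 1.32 in knockout and 7.32 in WT. Ppargc1b over Pprc1 gave log2 ratios of -1.84, -2.56, -3.10 and -2.56 in knockout, against 1.02, 1.68, 0.87 and 0.68 in WT. Ppargc1b was thus below Pprc1 in every knockout library and above it in every WT library, with geometric mean ratios of 0.175 in knockout and 2.08 in WT. Both ratios kept their groups apart when 1 FPKM was added to each gene.

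Ppargc1b kept a smaller share of its WT level than Ppargc1a. The log2 ratio of Ppargc1a to Ppargc1b was 3.45, 2.78, 3.05 and 2.39 in knockout, against 1.83, 1.24, 2.03 and 2.15 in WT. The groups did not overlap, and the geometric mean ratio was 7.56 in knockout and 3.51 in WT. With 1 FPKM added to each gene the groups overlapped and the mean log2 difference of the ratio shrank to 0.45 from 1.11, so its size rests on the level of Ppargc1b near 1 FPKM.

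**Figure D2:**
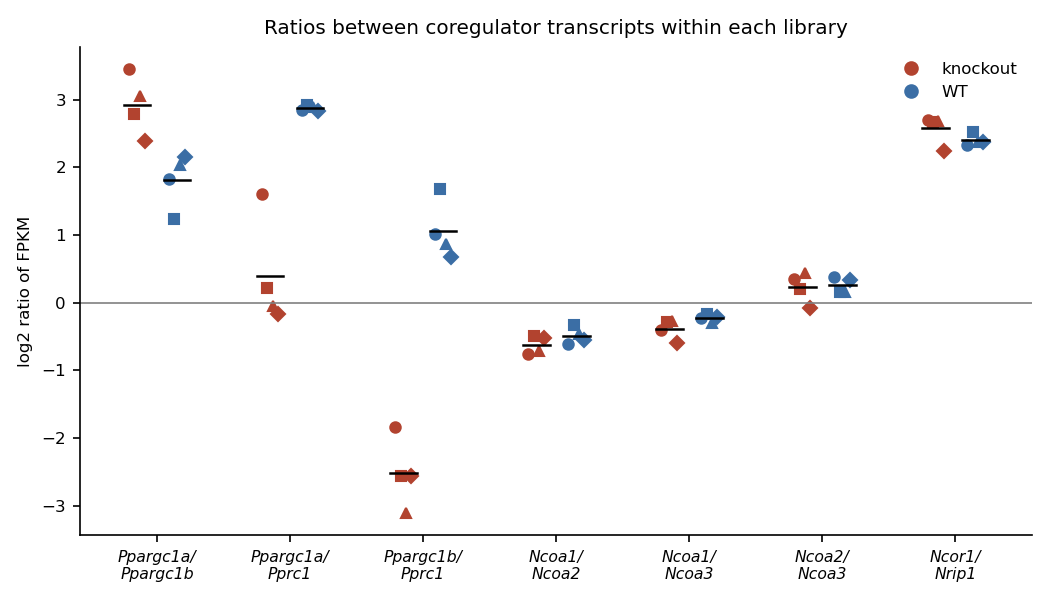
Log2 ratio of FPKM between pairs of members within each library (vertical axis), with knockout (red) left of WT (blue) for each pair, 1 point per library and the mean as a bar. The 3 pairs within the PGC-1 family separate the groups, and the pairs among the p160 members and the pair of Ncor1 and Nrip1 overlap.

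Summed over the PGC-1 family, the libraries had 15.1, 18.1, 14.1 and 16.6 FPKM in knockout, against 40.9, 40.4, 43.9 and 34.8 FPKM in WT. The sums did not overlap, at 16.0 ± 1.75 FPKM in knockout and 40.0 ± 3.77 FPKM in WT (SD, n = 4 each). The makeup of the sum differed as well. Pprc1 supplied 23.1%, 42.8%, 48.1% and 48.6% of it in the knockout libraries and between 8.49% and 10.3% in the WT libraries. Ppargc1a supplied 52.5 ± 12.3% in knockout and 70.1 ± 4.05% in WT, and Ppargc1b 6.88 ± 1.13% in knockout and 20.3 ± 4.79% in WT.

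**Figure D3:**
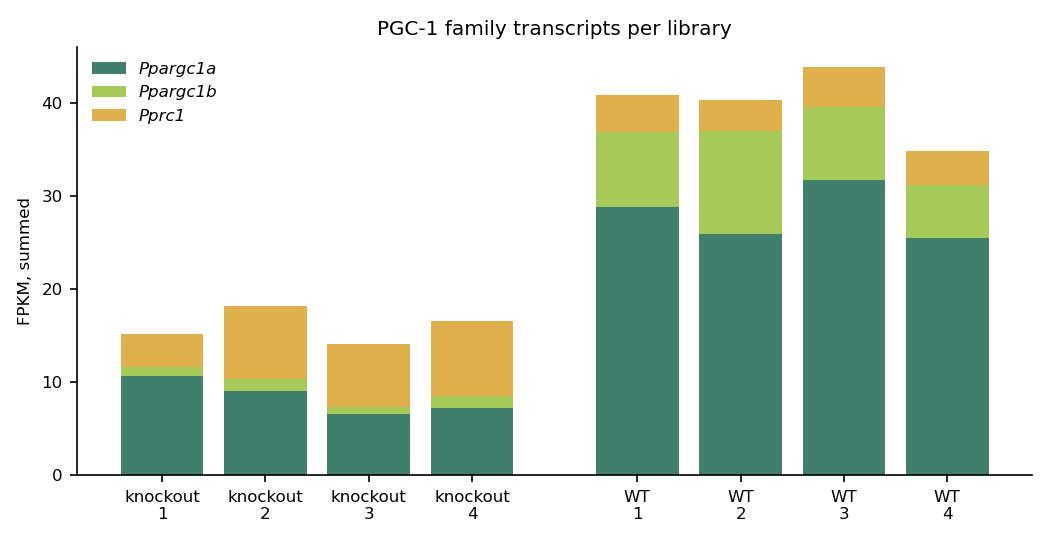
Stacked FPKM of Ppargc1a, Ppargc1b and Pprc1 (vertical axis, starting at 0) in each of the 4 knockout and 4 WT libraries. Knockout stacks reach 14.1 to 18.1 FPKM and WT stacks 34.8 to 43.9 FPKM, with Pprc1 a larger share of the knockout stacks.

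The start regions of Ppargc1a and Pprc1 are shown because these relatives were called in opposite directions in the deposited values. RefSeq promoter windows of GRCm38.p6 run from 250 bases before to 50 after a transcript start. Windows of 6 of the 9 members were used, and Ppargc1b was left out before the search. They were searched on both strands for TGACG, the short site of CREB-type factors, its palindrome TGACGTCA, the nuclear receptor core site AGGTCA, and the E-box CANNTG. Of 32851 promoter windows, 20.8% held TGACG, 1.79% TGACGTCA, 16.3% AGGTCA and 72.3% CANNTG. The Ppargc1a window (chr5:51567676-51567975, minus strand) held TGACG on its reverse strand 49 bases before the start, in capitals below, 6 copies of CANNTG, and neither of the other motifs. This RefSeq start lies 13804 bases upstream of the start of the gene as counted. The Pprc1 window (chr19:46056289-46056588, plus strand) held AGGTCA 113 bases before the start, in capitals below, and none of the other motifs. The matches are descriptions of letters and not of bound sites.
Ppargc1a promoter: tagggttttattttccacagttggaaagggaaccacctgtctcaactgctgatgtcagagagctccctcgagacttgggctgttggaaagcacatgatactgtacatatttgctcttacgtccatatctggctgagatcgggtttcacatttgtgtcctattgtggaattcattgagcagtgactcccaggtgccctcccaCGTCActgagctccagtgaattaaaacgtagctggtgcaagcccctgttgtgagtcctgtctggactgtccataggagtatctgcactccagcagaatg
Pprc1 promoter: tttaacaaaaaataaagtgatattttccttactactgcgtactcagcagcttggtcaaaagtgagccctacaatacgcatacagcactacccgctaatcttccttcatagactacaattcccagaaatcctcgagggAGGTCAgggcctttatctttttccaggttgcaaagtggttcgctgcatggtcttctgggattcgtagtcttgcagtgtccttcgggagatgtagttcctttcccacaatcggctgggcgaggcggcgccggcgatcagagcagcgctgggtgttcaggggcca

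The p160 coactivators stayed close to their WT levels in the deposited values. Ncoa1 (SRC-1, chr12:4247362-4477182) had 6.48, 6.42, 5.98 and 5.58 FPKM in the knockout libraries, against 6.16, 6.46, 6.53 and 5.89 FPKM in the WT libraries, and the groups overlapped. Its log2 difference was -0.03 (limma, adjusted p = 0.75). After rescaling it was called lower, at -0.27 (adjusted p = 0.0136), with 4.999 to 5.999 rescaled FPKM in knockout and 6.65 to 7.15 rescaled FPKM in WT. That rescaled difference is relative to the median gene. On that scale 25.9% of all genes had knockout libraries wholly below WT, and 15.3% had as deposited.

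Ncoa2 (SRC-2, chr1:13139159-13374083), whose loss in mice is known to alter metabolism, had 10.9, 9.05, 9.82 and 8.03 FPKM in the knockout libraries, against 9.37, 8.12, 8.94 and 8.60 FPKM in the WT libraries. Ncoa3 (SRC-3, chr2:165992637-166073242) had 8.54, 7.85, 7.23 and 8.46 FPKM in the knockout libraries, against 7.18, 7.28, 8.04 and 6.81 FPKM in the WT libraries. As deposited, both genes overlapped between groups and neither passed the test. Their log2 differences were 0.09 (limma, adjusted p = 0.415) for Ncoa2 and 0.11 (adjusted p = 0.243) for Ncoa3, both above 0 as deposited and both below 0 after rescaling, at -0.16 and -0.13. On the rescaled values Ncoa3 no longer overlapped, with 6.53 to 7.65 rescaled FPKM in knockout and 7.68 to 8.81 rescaled FPKM in WT, though it did not pass the test there (adjusted p = 0.174).

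The p160 sum was 23.6 ± 1.66 FPKM in knockout and 22.3 ± 0.972 FPKM in WT (SD, n = 4 each). Its makeup was alike in the groups, with Ncoa2 at 40.0% in knockout and 39.2% in WT, Ncoa3 at 34.1% in knockout and 32.8% in WT, and Ncoa1 at 25.9% in knockout and 28.0% in WT. The 3 within-family ratios overlapped between groups, and the mean log2 ratio of Ncoa1 to Ncoa3 differed most, by -0.16.

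Enzymes that the p160 proteins bring to chromatin were listed as 7 genes, of which 2 were called higher, 1 lower and 4 did not pass, with a median of 0.06, beside 44.9% of all genes higher and 16.4% lower. Kat2b, the acetyltransferase PCAF, rose to 53.3 ± 9.49 FPKM in knockout, against 32.2 ± 2.34 FPKM in WT, by 0.70 on the log2 scale (limma, adjusted p = 0.000879), and was called higher after rescaling too. Crebbp, the acetyltransferase CBP, had 5.79 ± 0.615 FPKM in knockout and 3.98 ± 0.499 FPKM in WT, and its call was lost after rescaling (0.22, adjusted p = 0.0831). Kat5, the acetyltransferase Tip60, fell to 9.16 ± 0.890 FPKM in knockout, against 11.0 ± 0.878 FPKM in WT, with a log2 difference of -0.24 (adjusted p = 0.0408). As deposited that call was lost on leaving out knockout 1, 2 or 3 or WT 1, 2 or 3. After rescaling the Kat5 difference was -0.49 (limma, adjusted p = 0.000942). After rescaling 1 of the 7 was called higher and 3 lower.

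Ncoa6, also called ASC-2, is a coactivator that belongs to a histone H3 lysine methyltransferase complex. The gene (chr2:155390656-155440783) had 7.51, 7.63, 6.80 and 7.40 FPKM in the knockout libraries, against 7.35, 8.21, 6.84 and 6.40 FPKM in the WT libraries. All knockout values lay inside the WT range, and the log2 difference was 0.03 (limma, adjusted p = 0.799). After rescaling it was -0.22, outside the threshold (adjusted p = 0.0525), with 6.14 to 7.13 rescaled FPKM in knockout and 7.22 to 9.03 rescaled FPKM in WT. Of 9 listed genes of its complex, 1 was called higher, 1 lower and 7 did not pass, with a median of -0.01, beside 44.9% of all genes higher and 16.4% lower. Dpy30, a core subunit of the methyltransferases, fell to 26.8 ± 1.60 FPKM in knockout, against 37.8 ± 4.34 FPKM in WT (log2 -0.47, limma, adjusted p = 0.00206). Ash2l, its partner in the core, had 16.7 ± 1.09 FPKM in knockout and 14.5 ± 0.688 FPKM in WT (0.19, adjusted p = 0.0447) and did not pass after rescaling, or without knockout 3 or any 1 WT library. Without knockout 4, 2 of the 9 were called lower. On the rescaled values 6 of the 9 were called lower and 0 higher (0 higher at an unadjusted limma p under 0.05 too), with a median of -0.28, beside 27% of all genes called lower.

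**Figure D4:**
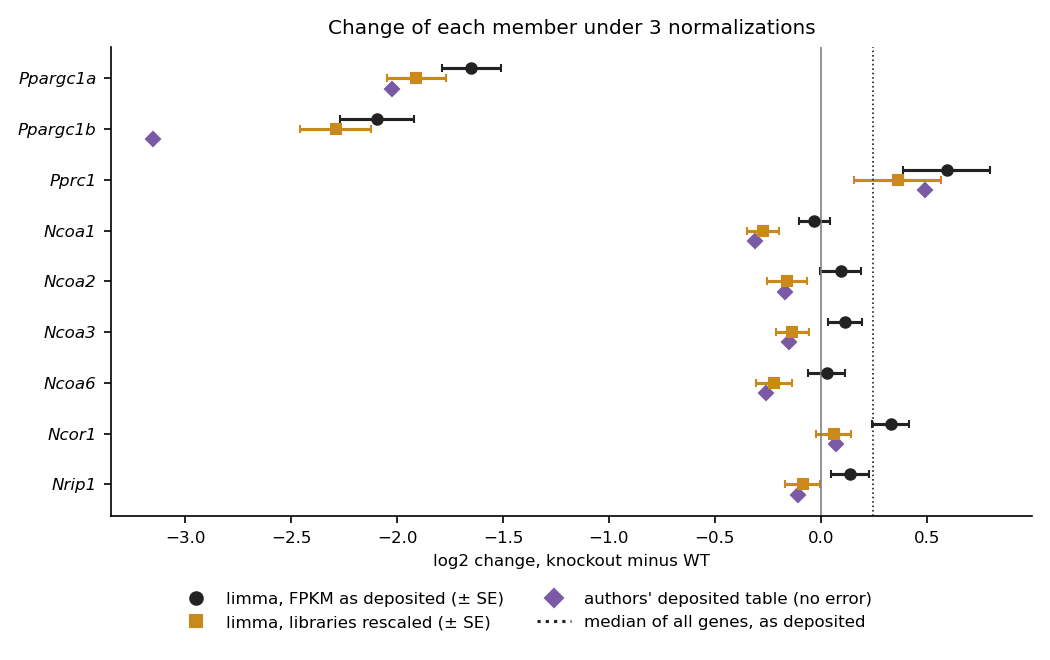
Log2 change of each member, knockout minus WT (horizontal axis), from limma on FPKM as deposited (circles) and on rescaled FPKM (squares), both on log2(FPKM + 1) with bars of ± SE, and from the authors' deposited table on plain FPKM (diamonds, no error); the dotted line is the median of all genes as deposited, 0.25. Ppargc1a and Ppargc1b lie far below 0 in all 3, and every member lies further left rescaled than as deposited.

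Ncor1, the corepressor that recruits and activates Hdac3 on unliganded receptors, was the most abundant member in knockout and the second in WT. The gene (chr11:62316426-62457332) had 29.3, 24.1, 25.2 and 23.0 FPKM in the knockout libraries, against 19.6, 21.0, 20.7 and 18.5 FPKM in the WT libraries. All knockout libraries lay above all WT libraries as deposited. Its mean was 25.4 ± 2.73 FPKM in knockout and 20.0 ± 1.14 FPKM in WT (SD, n = 4 each), 127% of WT, and the log2 difference was 0.33 ± 0.0875 (limma, adjusted p = 0.00889). After rescaling the groups overlapped and the difference was 0.06 (adjusted p = 0.563), the deposited difference lying close to the median of all genes, 0.25.

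Of 8 other listed genes of the NCoR and Sin3 corepressor complexes, 3 were called higher, 0 lower and 5 did not pass, with a median of 0.10, where 44.9% of all genes were called higher. Sin3b, a scaffold of the Sin3 corepressor, rose to 101 ± 20.0 FPKM in knockout, against 39.3 ± 3.29 FPKM in WT, by 1.33 on the log2 scale (limma, adjusted p = 3.82e-05). Hdac1, the deacetylase of that complex, rose to 23.5 ± 0.665 FPKM in knockout, against 12.7 ± 1.11 FPKM in WT (0.84, adjusted p = 1.97e-05). Both were still called higher after rescaling. Tbl1x, a subunit that exchanges NCoR for coactivators, had 19.5 ± 1.23 FPKM in knockout and 15.4 ± 0.851 FPKM in WT (0.32, adjusted p = 0.00406) and did not pass after rescaling, where 2 of the list were called higher and 2 lower. As deposited, 0 of the list were lower at an unadjusted limma p under 0.05.

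Nrip1, a ligand-dependent corepressor also known as RIP140, had the most LXXLL boxes of the members and 1 of the lowest transcript levels. The gene (chr16:76290862-76373049) had 4.50, 3.80, 3.91 and 4.87 FPKM in the knockout libraries, against 3.89, 3.65, 3.97 and 3.57 FPKM in the WT libraries. Knockout 1 and 4 lay above all WT libraries, and knockout 2 and 3 lay among them. Knockout 1 and 4 were also the knockout libraries with the most Adipoq, 1.82 and 21.0 FPKM, and whether that bears on Nrip1 was not tested. The log2 difference of Nrip1 was 0.14 (limma, adjusted p = 0.213), -0.09 after rescaling, and 0.09 (adjusted p = 0.436) without knockout 4. The ratio of Ncor1 to Nrip1 overlapped between groups, with geometric means of 5.96 in knockout and 5.29 in WT.

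Among 8 listed partners of Nrip1 and other receptor corepressors, 3 were called higher, 3 lower and 2 did not pass, with a median of 0.03, beside 44.9% of all genes higher and 16.4% lower. Nr0b2, the small heterodimer partner SHP that represses many receptors, fell to 1.09 ± 0.423 FPKM in knockout, against 12.2 ± 1.73 FPKM in WT (log2 -2.68, limma, adjusted p = 1.62e-06). Hdac9, a class IIa deacetylase that represses Mef2 factors, fell to 4.94 ± 1.47 FPKM in knockout, against 9.48 ± 1.06 FPKM in WT (-0.85, adjusted p = 0.00259). Its class relative Hdac5 went the other way, at 39.7 ± 8.72 FPKM in knockout and 25.0 ± 1.37 FPKM in WT (0.62, adjusted p = 0.00689), and did not pass after rescaling. Ddx54, an RNA helicase that represses estrogen receptor in human cells, rose to 12.5 ± 0.522 FPKM in knockout, against 8.43 ± 0.812 FPKM in WT (0.52, adjusted p = 0.000455), on both scales. After rescaling 1 of the 8 was called higher and 3 lower.

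Levels in FPKM are per transcript length and so can be ordered between members. In knockout the order of mean FPKM was Ncor1, Ncoa2, Ppargc1a, Ncoa3, Ncoa6, Pprc1, Ncoa1, Nrip1 and Ppargc1b. Neighbours from Ncoa2 down to Ncoa1 overlapped in their library ranges, while Ncor1 stood clear above them and Ppargc1b clear below all others. Nrip1, at 3.80 to 4.87 FPKM, lay below the ranges of these genes except Pprc1, which had 3.50 FPKM in knockout 1. In WT the order was Ppargc1a, Ncor1, Ncoa2, Ppargc1b, Ncoa3, Ncoa6, Ncoa1, Pprc1 and Nrip1. There Ppargc1a and Ncor1 stood clear of each other and of the rest, neighbours from Ncoa2 to Ncoa1 overlapped, and Pprc1 and Nrip1 overlapped at the bottom.

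The authors' deposited table of their own comparison gives FPKM by group rather than by library. It gave a median log2 change of 0.01 over all genes and called 22.8% of 12539 tested genes lower and 23.1% higher. In the authors' deposited table Ppargc1a changed by -2.02 (q = 0.000211) and Ppargc1b by -3.15 (q = 0.000211), on plain FPKM with no pseudocount. In the authors' deposited table Pprc1 was called higher at 0.49 (q = 0.00892). The other 6 members were not called in the authors' deposited table, from -0.31 for Ncoa1 (q = 0.066) to 0.07 for Ncor1 (q = 0.759), whose locus there is wider than in the library table.

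Other coactivators of receptors were listed as 13 genes, of which 6 were called higher, 1 lower and 6 did not pass, with a median of 0.17, a count of higher calls close to the 44.9% of all genes. Ascc2, a subunit of the ASC-1 coactivator complex, rose to 13.0 ± 1.53 FPKM in knockout, against 6.18 ± 0.785 FPKM in WT (log2 0.96, limma, adjusted p = 6.25e-05). Ncoa4, an androgen receptor coactivator that is also the ferritin cargo receptor, rose to 49.4 ± 6.03 FPKM in knockout, against 29.3 ± 2.63 FPKM in WT (0.73, adjusted p = 0.000265). Ddx17, an RNA helicase, rose to 147 ± 8.53 FPKM in knockout, against 88.5 ± 4.91 FPKM in WT (0.72, adjusted p = 3.74e-05). These 3 were also called higher after rescaling, and the 1 gene called lower was Perm1, the muscle regulator induced by PGC-1 and estrogen-related receptors. Perm1 fell to 20.6 ± 7.45 FPKM in knockout, against 91.1 ± 5.73 FPKM in WT (-2.15, adjusted p = 2.31e-05). On the rescaled values 5 of the 13 were called higher and 3 lower, and without knockout 1 the deposited values gave 2 lower.

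Factors that act upstream of Ppargc1a were listed as 16 genes, 15 of which reached 1 FPKM, with 6 called higher, 2 lower and 7 not passing, counts close to the 44.9% and 16.4% of all genes. Sirt1, the deacetylase that activates PGC-1α, rose to 10.5 ± 1.29 FPKM in knockout, against 4.99 ± 0.226 FPKM in WT (log2 0.93, limma, adjusted p = 3.41e-05). Gsk3b, a kinase that marks PGC-1α for breakdown, rose to 19.9 ± 1.87 FPKM in knockout, against 10.3 ± 0.360 FPKM in WT (0.88, adjusted p = 2.21e-05). Fbxw7, the ubiquitin ligase subunit that binds the phosphorylated protein, fell to 11.5 ± 0.992 FPKM in knockout, against 22.3 ± 3.25 FPKM in WT (-0.89, adjusted p = 0.000132). Atf2, a factor that activates the Ppargc1a promoter, had 13.4 ± 1.13 FPKM in knockout and 9.16 ± 0.766 FPKM in WT (0.51, adjusted p = 0.000772). The calls of these 4 held after rescaling, where 3 of the list were called higher and 5 lower.

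Transcription factors that PGC-1 proteins coactivate were listed as 17 genes, of which 4 were called higher, 8 lower and 5 did not pass, with a median of -0.21, beside 44.9% of all genes higher and 16.4% lower. Their summed level was 170 to 196 FPKM in knockout and 252 to 271 FPKM in WT. Rxrg, the RXR form found mainly in striated muscle, fell to 6.46 ± 1.72 FPKM in knockout, against 39.2 ± 2.18 FPKM in WT (log2 -2.46, limma, adjusted p = 2.09e-06). Ppara, the PPAR of fatty acid oxidation, fell to 3.54 ± 0.824 FPKM in knockout, against 15.4 ± 4.45 FPKM in WT (-1.83, adjusted p = 7.46e-05). Esrra, which encodes ERRα, fell to 28.0 ± 4.68 FPKM in knockout, against 55.4 ± 4.93 FPKM in WT (-0.97, adjusted p = 0.000107). Nr1h3, the liver X receptor LXRα, rose to 11.6 ± 1.33 FPKM in knockout, against 4.25 ± 0.774 FPKM in WT (1.27, adjusted p = 2.47e-05). On the rescaled values 1 was called higher and 10 lower, beside 26.9% and 27% of all genes, and without knockout 4, WT 1 or WT 3 the deposited values gave 5 lower.

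Genes known to respond to PGC-1 in mitochondria and fuel use were listed as 27 genes, of which 23 were called lower, 0 higher and 4 did not pass, with a median of -1.01, beside 16.4% of all genes called lower. Fndc5, the precursor of the myokine irisin, fell to 7.85 ± 3.62 FPKM in knockout, against 122 ± 9.45 FPKM in WT (log2 -3.91, limma, adjusted p = 8.06e-06). Cs, the citrate synthase of the Krebs cycle, fell to 237 ± 66.0 FPKM in knockout, against 756 ± 47.2 FPKM in WT (-1.71, adjusted p = 4.53e-05). Ucp3, a mitochondrial carrier of muscle, ranged from 0.694 to 2.65 FPKM in knockout and from 6.19 to 67.5 FPKM in WT (-3.05, adjusted p = 0.00163). Perm1, given above, is also on this list. The list sum was 9037 to 11909 FPKM in knockout and 20344 to 21559 FPKM in WT. Like the cardiomyocyte marker sum given above, it was lower in every knockout library than in any WT library. Among knockout libraries both sums rose in the same order: knockout 1, 4, 3 and 2. The list sum went from 9037 to 11909 FPKM there and the marker sum from 14647 to 22319 FPKM. Among WT libraries the orders differed, as WT 2 had the highest list sum and the lowest marker sum, 42876 FPKM. Whether the list sum follows the marker sum was not tested. After rescaling 25 were called lower and 0 higher, beside 27% of all genes lower, and limma at an unadjusted p under 0.05 gave 0 higher in the deposited and the rescaled values.

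**Figure D5:**
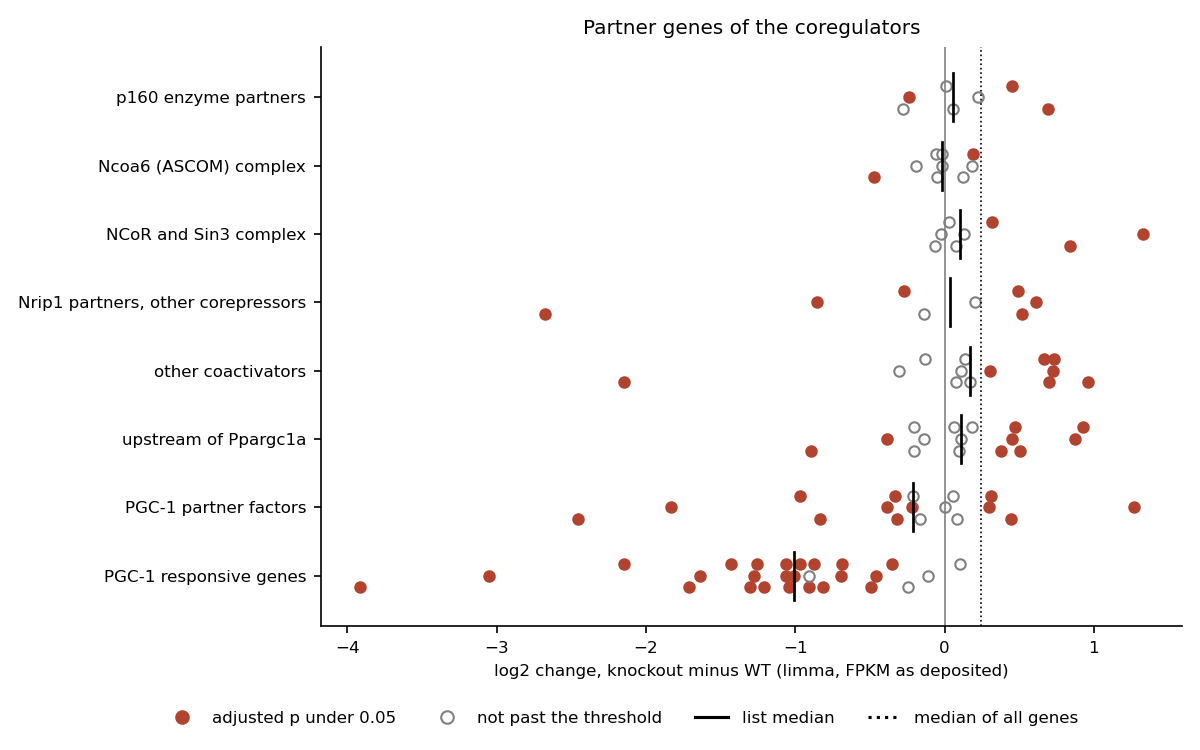
Log2 change, knockout minus WT on FPKM as deposited (horizontal axis), of each tested gene in the 8 partner lists (rows), filled where limma's adjusted p is under 0.05, with the list median as a vertical bar and the median of all genes, 0.25, as a dotted line. The PGC-1 responsive genes lie mostly left of 0, with a median of -1.01, and the medians of the other lists lie between -0.21 and 0.17.

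The genes most like a member across the 8 libraries were ranked by Pearson's r of log2(FPKM + 1) among the 8279 genes that averaged 5 FPKM or more. For Ppargc1a they were Fhod3 (r = 0.996), a formin of the sarcomere, Hcn2 (0.994), a pacemaker channel, and Stk39 (0.994), a kinase of ion cotransport, and 758 genes passed 0.9. For Ppargc1b they were Dgat2 (0.996), which makes triglyceride, Fitm2 (0.995), a lipid droplet protein, and Pank1 (0.995), which starts coenzyme A synthesis, and 812 genes passed 0.9. For Nrip1 they were Man2a1 (0.973), Cstb (0.966) and Trf (0.962), and 46 genes passed 0.9. Since the libraries form 2 groups, an r near 1 for Ppargc1a or Ppargc1b mostly records the difference between knockout and WT.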

How the data were processed

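Poly(A) RNA of 8 ventricle samples was sequenced from stranded libraries and aligned to mm10 with TopHat (application version 1.0.0), per the submitters' processing notes, which also name Cufflinks and Cuffdiff. The sources used here name neither their versions, nor the annotation, nor strand use in counting. Each deposited value is an FPKM, per the file headers. A word stood in place of it in every library for 312 of 23847 rows and in 1 library for 1 row, which left 23534 rows, and 0.001 FPKM was read as 0. The authors' deposited comparison table gives FPKM by group, log2 fold changes, a test score not used here, p-values and q-values. An FPKM falls when other genes take more of a library, hence the rescaled values.

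Libraries were grouped by their titles. On log2(FPKM + 1), differences of genes averaging 1 FPKM or more were tested two-sided with limma (3.58.1, R 4.3.3) and its trend option, after a check on simulated data. FPKM hold no counts, so depth per library is unknown beyond the relative steps below 0.05 FPKM. Alternatives were median-of-ratios rescaling or quantile normalization, each library left out, a replicate block, robust variances, array weights, no trend, a minimum of 5 FPKM or none, and a pseudocount of 0.1. Rescaling without knockout 1 or without knockout 4 was added after the data were seen. The members and the partner lists were chosen with earlier results of these data known. Named are all members, Med1, up to 4 called genes of largest change per list and the 3 genes most like Ppargc1a, Ppargc1b and Nrip1. Myl7, Sln, Nppa, Adipoq and the pericyte markers were picked after their values were seen. A gene on the corepressor list is not reported here. Perm1 stands in the table as 2310042D19Rik. Same-numbered libraries of both groups did not deviate together (correlations -0.04 to 0.14), so numbers were not taken as pairs. Promoters are RefSeq's (GRCm38.p6). Boxes were searched in the longest GENCODE M21 coding sequence per gene.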

Additional observations from a re-analysis of the deposited data

How the results depend on the processing

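Ppargc1a and Ppargc1b stayed lower in knockout and past the threshold under each alternative that tested them. Ppargc1b was not tested at a minimum of 5 FPKM, which leaves 1 member called lower. Leaving out 1 library at a time gave log2 changes of -1.76 to -1.55 for Ppargc1a, -2.23 to -1.96 for Ppargc1b, 0.49 to 0.82 for Pprc1, -0.0546 to 0.00723 for Ncoa1, 0.028 to 0.16 for Ncoa2, 0.085 to 0.16 for Ncoa3, -0.0206 to 0.0850 for Ncoa6, 0.26 to 0.37 for Ncor1 and 0.085 to 0.18 for Nrip1. Ncoa1 changed sign without knockout 4 and Ncoa6 without WT 4, neither past the threshold, and members called higher ranged from 1 to 2. Rescaling gave 3224 genes higher and 3235 lower in place of 5371 and 1964, quantile normalization 3437 and 3067, rescaling without knockout 1 3162 and 3184, and rescaling without knockout 4 3213 and 3164. In that order of 4 settings, Pprc1 was at 0.36, 0.39, 0.59 and 0.27 (called only without knockout 1), Ncor1 at 0.0611, 0.0636, 0.00102 and 0.114, not called, and Ncoa1 at -0.27, -0.25, -0.288 and -0.226, called lower in all 4. Below 0 and not called were Ncoa2 (-0.16, -0.15, -0.22 and -0.0820), Ncoa3 (-0.13, -0.12, -0.15 and -0.148), Ncoa6 (-0.22, -0.20, -0.22 and -0.214) and Nrip1 (-0.0861, -0.0552, -0.101 and -0.1298). Members called higher were 0, 0, 1 and 0. With no expression minimum Pprc1, at 0.59, had an adjusted p of 0.0625 and 1 member was called higher. Array weights put Ncoa6 at -0.00614. The cause of these changes was not tested. The replicate numbers share no more than a number, and the replicate block gave 5089 genes higher and 1867 lower, with 2 members called higher and 2 lower. Fragment totals are unknown, so no counting error can be given.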
